A study of Cucumis sativus with 6 samples.

Results

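Cyclins, cyclin-dependent kinases (CDKs) and kinesins were followed in cucumber (Cucumis sativus) fruit: every gene whose product description began with "cyclin" or contained "kinesin", which gave 136 of the 21317 genes in the table. The fruits were of the inbred line YB, selfed, and peel and flesh were dissected apart for RNA sequencing 3, 6 and 9 days later; the title of the study names the search for astringency genes as its purpose. Each of the 6 groups (peel at day 3, day 6 and day 9; flesh at day 3, day 6 and day 9) was 1 library made from a mix of 3 fruits, so no tissue and day had a replicate. All groups were of the same line, and the labels name no treatment. Levels are given as FPKM (fragments per kilobase of gene, scaled to the size of the library), a scale on which genes of different length can be compared. Tests took in the 124 of the 136 genes whose FPKM, averaged over the 6 libraries, reached 1.

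Cyclins are the regulatory partners of CDKs, and the pairing decides when in the cell cycle a kinase is active. D-type cyclins act at the entry into the cycle, A-type cyclins mainly during DNA synthesis and before mitosis, and B-type cyclins at mitosis together with B-type CDKs, a class of kinase found in plants whose transcripts peak around mitosis. Small CDK inhibitors bind and restrain these complexes, and the CDK regulatory subunit docks the kinase to its substrates. Kinesins are motor proteins that move along microtubules. In plants many of them build the spindle and the phragmoplast, the structure that lays down the new cell wall, while others carry cargo or shape the cortical microtubules of cells that no longer divide. In young cucumber fruit, cell division is concentrated in the early days after flowering and later growth is mostly by cell expansion. Cyclins of the C, H, T and L types and their CDKs work mainly on transcription and RNA processing and are present in dividing and non-dividing cells.

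The libraries held between 14899922 reads (peel, day 9) and 23740219 reads (flesh, day 6) assigned to genes. On the first principal component of all genes tested, with 51.8% of the variance, the peel library of day 9 lay at -124 and the other 5 between -36.6 and 79.6, so every value of peel at day 9 below rests on a library that stood apart. Genes of cuticle and wax formation, which mark the outer epidermis, summed over 14 genes to 266, 316 and 537 FPKM in peel at days 3, 6 and 9, against 156, 89.9 and 90.2 FPKM in flesh, so peel was above flesh in these markers on each day, as the labels place them. Photosynthesis genes (45) summed to 3174, 2009 and 1193 FPKM in peel and to 3094, 2954 and 2142 FPKM in flesh. Vascular and phloem genes (31) summed to 12603, 8832 and 14651 FPKM in peel and to 1507, 5027 and 18131 FPKM in flesh, and seed and ovule genes (54) to 2408, 1954 and 5387 FPKM in peel and to 1911, 1622 and 4180 FPKM in flesh. Only 1 gene of these 4 lists, in the seed and ovule list, was at 0 in all libraries. The seed and vascular sums rested largely on few genes. Csa7G398090, in the seed and ovule list by its name as a late embryogenesis abundant protein, held 1975 FPKM of the day 3 sum in peel and 4875 of the day 9 sum. In flesh it stood at 1413, 1114 and 3547 FPKM, below peel on each day. The list sum was also lower in flesh on each day, so it is not read here as seed content. The phloem gene Csa7G067350 held 5752 FPKM of the peel sum at day 3. At day 9 in peel, 17 of 26 tested genes of the seed list and 16 of 25 of the vascular list were below day 3. Median differences were -0.37 and -0.36 on the log2(FPKM + 1) scale. In flesh 11 genes of the seed list and 5 of the vascular list were below, with medians of 0.17 and 1.65. These marker sums moved with day in the same libraries as the cell cycle genes, and their part in the results was not tested. In mixed tissue, fewer dividing cells and less transcript per dividing cell cannot be told apart.

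At day 9 a large set of division genes stood at a small percentage of the day 3 level in both tissues, while the transcription-related cyclins and most other CDKs stood near it. The difference between day 9 and day 3 on the log2(FPKM + 1) scale had a median of -0.79 in peel and -0.72 in flesh over the 124 genes, against -0.02 in peel and -0.01 in flesh over all 17265 genes tested. A 4-fold difference means 2 units on this log2(FPKM + 1) scale here and below, where no other scale is named; the added 1 makes it a stricter bound for genes of low FPKM. In peel, 36 of the 124 were at least 4-fold lower at day 9 than at day 3, where 4.63% of all genes tested were. In flesh, 35 of the 124 were, where 3.06% of all genes were. Both criteria were met by 32 genes, where 1.71% of all genes met both. At least 4-fold higher at day 9 were 3 of the 124 in peel (5.2% of all genes) and 0 in flesh (3.4% of all genes). On the FPKM itself, with nothing added, 47 were at least 4-fold lower in peel (7.92% of all genes), 45 in flesh (6.09%) and 40 in both (3.1%), the 32 among them. These counts compare single libraries and carry no test.

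The model with tissue and day as terms gave the only error for day 9 against day 3, with 2 residual degrees of freedom, in which any departure of the tissues from a common time course counts as error. With limma and Benjamini-Hochberg adjustment over all genes, 0 of the 124 passed an adjusted p of 0.05, and 0.0% of all genes did, the smallest adjusted p of the 124 being 0.0568. At an unadjusted p under 0.05, 59 of the 124 were lower at day 9, where 13.6% of all genes were, and 4 were higher, where 11.3% were. Counts of reads tested with DESeq2 in the same model gave 53 genes called lower (8.45% of all genes) and 1 called higher (7.94% of all genes), whereas edgeR's quasi-likelihood test gave 0 called lower (0.0405% of all genes) and 0 called higher (0.104% of all genes). With day taken as a number in limma, 17 were called lower (1.28% of all genes) and 0 higher (0.573% of all genes). The count of calls therefore depended on the tool and the model, and since none passed limma in the model with day as a factor, the words lower and higher below describe values only.

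**Figure D1:**
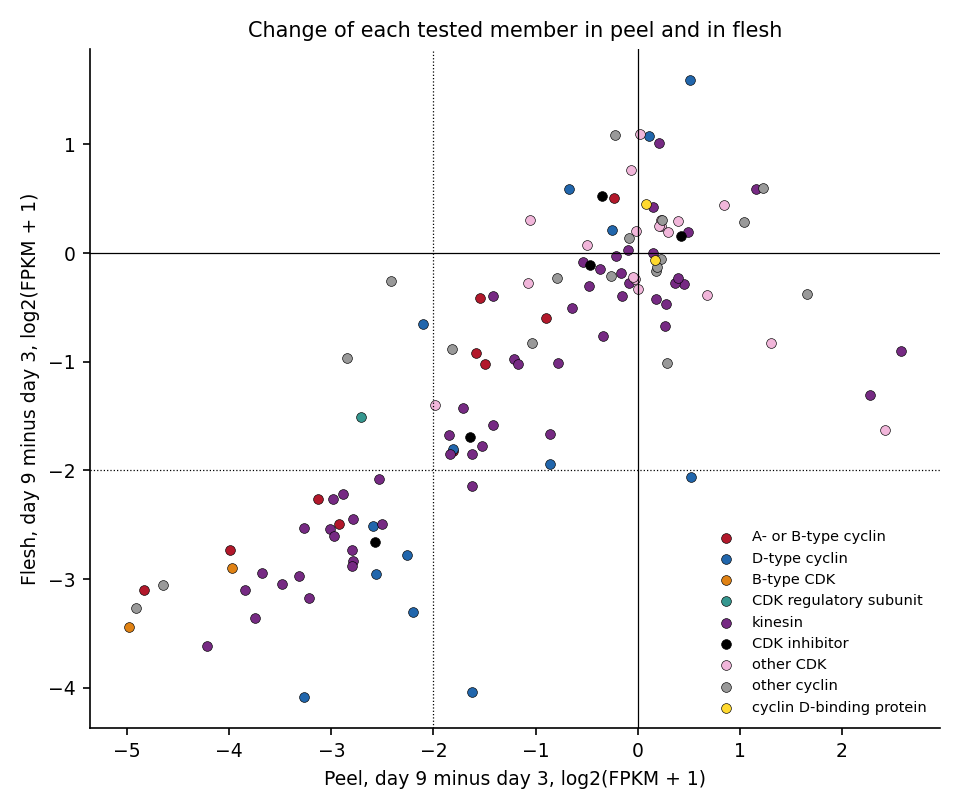
Difference between day 9 and day 3 on the log2(FPKM + 1) scale for each of the 124 genes tested, in peel on the horizontal axis and in flesh on the vertical axis, coloured by gene class, 1 library per tissue and day. Dotted lines mark -2, a 4-fold lower value, and the 32 genes below both lines lie in the lower left corner.

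The B-type cyclins, partners of the mitotic kinases, were lower with each later day in both tissues. The most abundant, Csa4G658580 (cyclin B, chromosome 4, 22971913 to 22975183), stood at 49.2, 25.4 and 0.763 FPKM in peel at days 3, 6 and 9, and at 42.1, 12.8 and 4.01 FPKM in flesh. The day 6 value was higher in peel than in flesh, and the day 9 value was lower. At day 9 it rested on 23 reads in peel, with an exact 95% Poisson interval of 0.484 to 1.14 FPKM, against 162 reads in flesh, with an interval of 3.42 to 4.68 FPKM; these intervals cover counting error only. The fitted difference of day 9 against day 3 was -3.97 ± 0.63 log2 units (SE) with an adjusted p of 0.0654 (limma).

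Csa6G509580, another cyclin B (chromosome 6, 26118853 to 26121498), stood at 24.9, 19.8 and 0.624 FPKM in peel and at 21.1, 8.05 and 2.33 FPKM in flesh. Csa7G239600, the third gene named cyclin B (chromosome 7, 8816735 to 8822670), stood at 14.0, 10.1 and 0.973 FPKM in peel and at 14.9, 5.28 and 1.83 FPKM in flesh. All 3 thus kept the same order of days in both tissues. Their fitted differences were -3.36 ± 0.57 log2 units for Csa6G509580 (adjusted p = 0.069, limma) and -2.71 ± 0.39 for Csa7G239600 (adjusted p = 0.0609, limma).

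A pair of genes described only as "Cyclin" followed the cyclin B course. Their descriptions carry the A/B/D/E type of cyclin domain, as do those of Csa4G658580 and Csa6G509580, while Csa7G239600 has a cyclin-like domain. Csa4G425740 stood at 53.1, 29.9 and 0.80 FPKM in peel and at 42.0, 13.8 and 3.47 FPKM in flesh. Csa6G428000 stood at 41.0, 15.8 and 0.674 FPKM in peel and at 36.9, 12.7 and 3.55 FPKM in flesh. For Csa4G425740 the day 3 level was 66.4 times the day 9 level in peel and 12.1 times in flesh, the widest ratio in peel among the genes described here. The neighbour of that gene on chromosome 4, Csa4G425750 ("Cyclin4"), carries no cyclin domain in its description, and stood at 42.8, 16.1 and 5.08 FPKM in peel against 65.7, 60.6 and 33.2 FPKM in flesh.

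The A-type cyclins were mixed. Of 7 genes named cyclin A or cyclin A-like, only Csa3G878930 was at least 4-fold lower on the log2(FPKM + 1) scale at day 9 in both tissues, with 18.9, 23.6 and 1.27 FPKM in peel, against 12.8, 5.29 and 1.86 FPKM in flesh. The cyclin A-like Csa7G071600, a gene of low level, was so on the FPKM itself, with 4.00, 3.49 and 0.431 FPKM in peel and with 4.46, 2.81 and 0.543 FPKM in flesh. The most abundant, Csa2G354980, stood at 64.0, 53.7 and 21.3 FPKM in peel and at 60.3, 71.6 and 45.01 FPKM in flesh, so it was still well above the cyclin B genes at day 9 in both tissues. Csa6G382370 stood at 12.5, 11.3 and 10.5 FPKM in peel and at 19.4, 11.9 and 28.1 FPKM in flesh. It was the only one of the 10 A- and B-type cyclins above its day 3 level at day 9 in a tissue, in flesh, and its locus is shared with another gene in the table. Over the 10, the median difference of day 9 from day 3 was -1.69 log2 units in peel and -1.42 in flesh. At an unadjusted p under 0.05 in limma, 9 were lower, where 13.6% of all genes were.

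**Figure D2:**
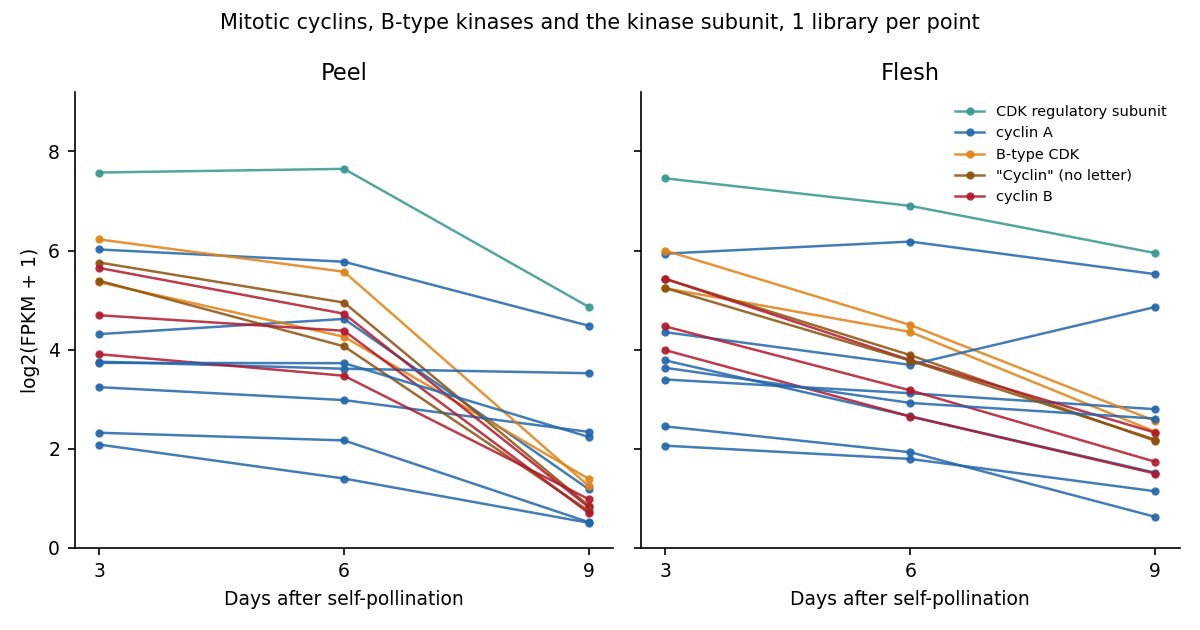
Levels, as log2(FPKM + 1), of the A- and B-type cyclins, the genes described only as "Cyclin", the B-type CDKs and the CDK regulatory subunit in peel (left) and flesh (right) at days 3, 6 and 9, 1 library per point. The cyclin B and B-type CDK lines bend down mostly after day 6 in peel, where Csa4G658580 stood at 25.4 FPKM at day 6 and 0.763 FPKM at day 9, and more evenly in flesh.

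Both B-type CDKs, the kinases of mitosis, were among the genes with the largest differences. Csa4G664480 (CDK B2, chromosome 4, 23154683 to 23156878) stood at 73.8, 46.6 and 1.37 FPKM in peel and at 62.9, 21.6 and 4.90 FPKM in flesh, a fitted difference of -4.21 ± 0.61 log2 units for day 9 against day 3 (adjusted p = 0.0609, limma). Csa4G198330 (CDK B, chromosome 4, 9815253 to 9816686) stood at 40.1, 18.2 and 1.62 FPKM in peel and at 36.7, 19.5 and 4.07 FPKM in flesh, a fitted difference of -3.43 ± 0.33 (adjusted p = 0.0568, limma). Peel was below flesh at day 9 for both genes. At day 6 peel was above flesh for CDK B2 and slightly below it for CDK B.

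The CDK regulatory subunit Csa1G132710 (chromosome 1, 9457402 to 9458435) was the most abundant of all the genes at day 3 and kept its level to day 6 in peel. It stood at 190, 200 and 28.1 FPKM in peel and at 175, 119 and 60.8 FPKM in flesh. The peel value of day 9 was lower than any other value of the gene, and the flesh value of day 9 came next. Its fitted difference of day 9 against day 3 was -2.11 ± 0.48 log2 units (adjusted p = 0.10, limma).

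D-type cyclins, which act at the entry into the cycle, split into a group that was low at day 9 and a group that was not. Of 14 tested, 6 in peel (4.63% of all genes) and 7 in flesh (3.06%) were at least 4-fold lower at day 9. In both tissues 5 were so (1.71% of all genes), all on the log2(FPKM + 1) scale. On the FPKM itself 7 were so in both (3.1% of all genes), these 5 with Csa6G499110, given below, and Csa4G642510. The latter stood at 3.29, 0.652 and 0.226 FPKM in peel and at 6.01, 1.73 and 1.01 FPKM in flesh. At an unadjusted p under 0.05, 9 were lower and 1 higher (13.6% and 11.3% of all genes). The fifteenth, Csa4G296210, stood between 0 and 0.352 FPKM and was not tested. The 5 were Csa4G641660 and Csa3G199660 (both cyclin D3-1), Csa7G072880 (cyclin D3.2) and the neighbours Csa6G491640 and Csa6G491650, whose gene models lie 125 bases apart on chromosome 6.

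Csa4G641660 (chromosome 4, 21408712 to 21410305) stood at 38.7, 18.6 and 3.12 FPKM in peel and at 28.3, 6.05 and 0.725 FPKM in flesh, with a fitted difference of -3.68 ± 0.33 log2 units for day 9 against day 3 (adjusted p = 0.0568, limma). Csa3G199660 (chromosome 3, 13785912 to 13788112) stood at 99.7, 86.4 and 20.8 FPKM in peel and at 85.4, 19.0 and 7.78 FPKM in flesh. Csa7G072880 (chromosome 7, 4818003 to 4820616) stood at 70.1, 36.5 and 11.1 FPKM in peel and at 45.03, 10.8 and 4.95 FPKM in flesh. In each of these 3 genes, peel was above flesh on every day. That order at day 9 was the opposite of the cyclin B and B-type CDK genes, whose day 9 values were lower in peel.

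Another D3-named gene, Csa2G356070 (cyclin d3.1), stood at 79.0, 63.0 and 43.2 FPKM in peel and at 46.8, 9.72 and 11.5 FPKM in flesh. Its peel level at day 6 was 6.48 times the flesh level, and its flesh values of days 6 and 9 were close to each other. The comparison of peel with flesh gave 1.72 ± 0.39 log2 units for this gene (adjusted p = 0.106, limma). Csa6G499110 (cyclin d) was nearly confined to day 3, with 2.30, 0.229 and 0.0692 FPKM in peel, against 16.3, 0.995 and 0.0521 FPKM in flesh, the day 9 values being 1 read in each tissue.

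Other D-type cyclins stood above the day 3 level at day 9 in 1 tissue or both. Csa2G370350 stood at 4.35, 5.63 and 6.62 FPKM in peel and at 5.403, 7.09 and 18.3 FPKM in flesh, the largest positive fitted difference of the class, 1.05 ± 0.36 log2 units (adjusted p = 0.177, limma). Csa5G603320 stood at 63.4, 23.4 and 91.8 FPKM in peel and at 80.0, 34.4 and 18.4 FPKM in flesh, so the tissues were near each other at days 3 and 6 and far apart at day 9. Csa5G488810, named here after its values were seen, stood at 18.7, 14.3 and 20.3 FPKM in peel and at 25.3, 20.5 and 54.6 FPKM in flesh. Of the proteins named for binding D-type cyclins, Csa5G611070 stood between 21.5 and 23.4 FPKM in peel and between 19.7 and 27.3 FPKM in flesh, and Csa3G124810 between 11.8 and 13.9 FPKM in peel and between 14.4 and 19.1 FPKM in flesh; both share their locus with another gene.

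**Figure D3:**
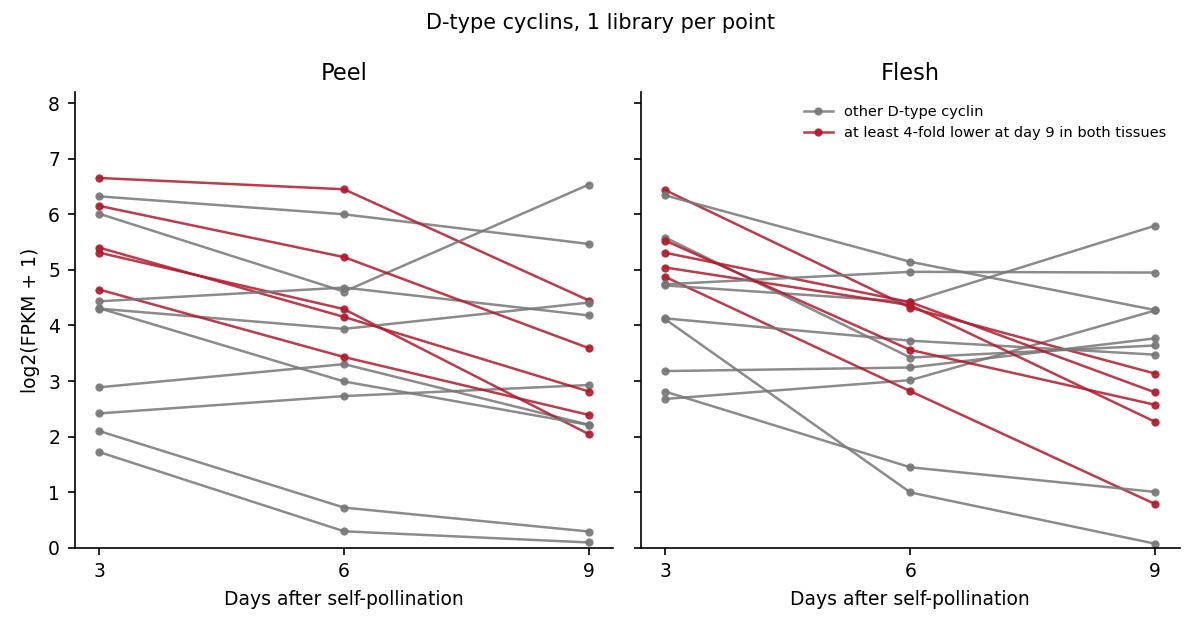
Levels, as log2(FPKM + 1), of the 14 tested D-type cyclins in peel (left) and flesh (right) at days 3, 6 and 9, 1 library per point. Red lines are the 5 genes at least 4-fold lower at day 9 than at day 3 in both tissues, and grey lines the other D-type cyclins, several of which end level with or above day 3.

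The CDK inhibitors, which restrain the kinases, did not share a course. Csa3G627700 (CDK inhibitor 3) had a course close to that of the D3 cyclins, with 26.7, 15.2 and 3.65 FPKM in peel, against 14.4, 3.20 and 1.44 FPKM in flesh, and a fitted difference of -2.62 ± 0.36 log2 units for day 9 against day 3 (adjusted p = 0.0589, limma). Csa7G339140 stood at 7.86, 6.07 and 1.84 FPKM in peel and at 5.09, 3.78 and 0.881 FPKM in flesh. The most abundant inhibitor, Csa2G138190, stood at 50.6, 44.0 and 39.5 FPKM in peel and at 50.4, 42.5 and 73.0 FPKM in flesh, so its highest and lowest values were both at day 9, in different tissues. Csa3G131960 stood between 16.8 and 24.1 FPKM in peel and between 25.2 and 27.4 FPKM in flesh, and Csa7G073750 between 2.23 and 3.45 FPKM in peel and between 3.14 and 3.82 FPKM in flesh.

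Most of the remaining CDKs stood near the day 3 level at day 9: 14 of the 19 tested were within 1 log2 unit of it in peel and 16 in flesh. The share of all genes within 1 log2 unit is not given, so these counts do not set the class apart from all genes. Over the 19, the median difference of day 9 from day 3 was 0.02 log2 units in peel and 0.19 in flesh. The differences ran from -1.99 to 2.42 in peel and from -1.63 to 1.098 in flesh. Thus 0 were at least 4-fold lower on this scale, where 4.63% of all genes were in peel and 3.06% in flesh. On the FPKM itself 1 was in peel (7.92% of all genes), CDK C-1, and 1 in flesh (6.09%), Csa6G127480, both given below. CDK A, the kinase Csa5G615250 that works with both D- and A-type cyclins, stood at 79.3, 73.1 and 104 FPKM in peel and at 105, 105 and 129 FPKM in flesh, so its highest value in each tissue was at day 9. The most abundant, Csa2G350480, stood at 148, 78.7 and 147 FPKM in peel and at 108, 54.0 and 124 FPKM in flesh, with its lowest value at day 6 in both tissues. Csa5G590100 had the largest positive fitted difference of the class, 0.64 ± 0.21 log2 units (adjusted p = 0.171, limma), with 30.7, 38.7 and 55.8 FPKM in peel, against 38.1, 36.8 and 52.0 FPKM in flesh. The largest negative one was that of CDK C-1, Csa6G018600, at -1.69 ± 0.39 (adjusted p = 0.102, limma), with 15.8, 13.5 and 3.24 FPKM in peel, against 14.8, 6.77 and 4.99 FPKM in flesh. Csa1G051730 stood at 10.2, 10.5 and 4.37 FPKM in peel and at 2.64, 2.86 and 3.48 FPKM in flesh.

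Among the other cyclins, 7 carried a C/H/T/L type of domain, that of the transcription-related cyclins, and none of these 7 was at least 4-fold different between day 9 and day 3 in either tissue. Of all genes, 4.63% in peel and 3.06% in flesh were at least 4-fold lower, and 5.2% and 3.4% at least 4-fold higher. With only 7 genes, a count of 0 is near those shares. The median difference of the 7 was 0.19 log2 units in peel and 0.14 in flesh. Csa2G361870 (cyclin T1-5) stood at 12.5, 16.2 and 30.6 FPKM in peel and at 13.9, 16.7 and 21.6 FPKM in flesh, and was the 1 gene DESeq2 called higher, with an adjusted p of 0.036, where limma gave 0.125. Csa6G425070 (cyclin L1) stood at 18.9, 20.8 and 40.04 FPKM in peel and at 35.2, 34.6 and 43.2 FPKM in flesh. Csa7G389460, a cyclin of the PHO80-like type, stood at 79.1, 94.2 and 67.6 FPKM in peel and at 108, 160 and 231 FPKM in flesh, so peel was below flesh on every day and the gap was widest at day 9. Csa2G337770, named cyclin C1-1, is a short gene model that rested on few reads: its 27.0 FPKM in peel at day 9 were 4 reads, and it was at 0 in flesh at day 6.

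The kinesins were the largest class, with 60 genes of which 53 were tested, and those at least 4-fold lower at day 9 all carried a motor domain. Of the 48 whose description names a kinesin motor domain, 44 were tested. At least 4-fold lower at day 9 than at day 3 were 18 of these in peel (4.63% of all genes) and 19 in flesh (3.06%). Of them, 18 were so in both (1.71% of all genes). The median difference of the 44 was -1.62 log2 units in peel and -1.72 in flesh. The 26 motor kinesins not among the 18 had medians of -0.46 in peel and -0.72 in flesh. The 9 tested kinesin-named genes without a motor domain, mostly kinesin light chains with tetratricopeptide repeats, had medians of -0.09 in peel and -0.30 in flesh, and 0 were at least 4-fold lower in either tissue. The "kinesin heavy chain isolog" Csa3G872730 carries no motor domain in its description. At an unadjusted p under 0.05 in limma, 29 of the 44 motor kinesins were lower and 0 higher (13.6% and 11.3% of all genes), and DESeq2 called 28 of them lower and 0 higher (8.45% and 7.94% of all genes).

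Csa3G062600 (kinesin related protein, chromosome 3, 3597014 to 3603281) had the largest negative fitted difference of the kinesins, -3.92 ± 0.38 log2 units for day 9 against day 3 (adjusted p = 0.0568, limma). It stood at 26.9, 15.7 and 0.501 FPKM in peel and at 34.6, 11.5 and 1.90 FPKM in flesh. The day 3 level was 53.7 times the day 9 level in peel and 18.2 times in flesh, from 34 reads in peel and 174 reads in flesh at day 9. Csa4G293320 stood at 22.6, 13.8 and 0.761 FPKM in peel and at 23.3, 7.49 and 1.38 FPKM in flesh. Csa1G065980 stood at 30.7, 20.8 and 1.198 FPKM in peel and at 33.2, 12.5 and 2.99 FPKM in flesh. In all 3 genes peel was above flesh at day 6 and below it at day 9.

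The most abundant kinesins did not follow that course. Csa6G306320 stood at 48.8, 58.1 and 63.1 FPKM in peel and at 62.2, 69.1 and 51.1 FPKM in flesh. Csa4G538080 stood at 47.0, 68.3 and 54.6 FPKM in peel and at 47.9, 67.3 and 97.7 FPKM in flesh. The light chain Csa1G004960, of a family that in animals binds cargo and has no motor, stood at 30.03, 28.9 and 68.3 FPKM in peel and at 38.4, 46.9 and 58.1 FPKM in flesh, the largest positive fitted difference of the class, 0.87 ± 0.29 log2 units (adjusted p = 0.168, limma). The 44 motor kinesins ran from low to level without a gap: by their mean difference over both tissues, 7 lay between -4 and -3 log2 units, 11 between -3 and -2, 10 between -2 and -1, 9 between -1 and 0, and 7 between 0 and 1. The 7 kinesins not tested had means under 1 FPKM, and 1 of them, Csa1G675040, was at 0 in every library.

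**Figure D4:**
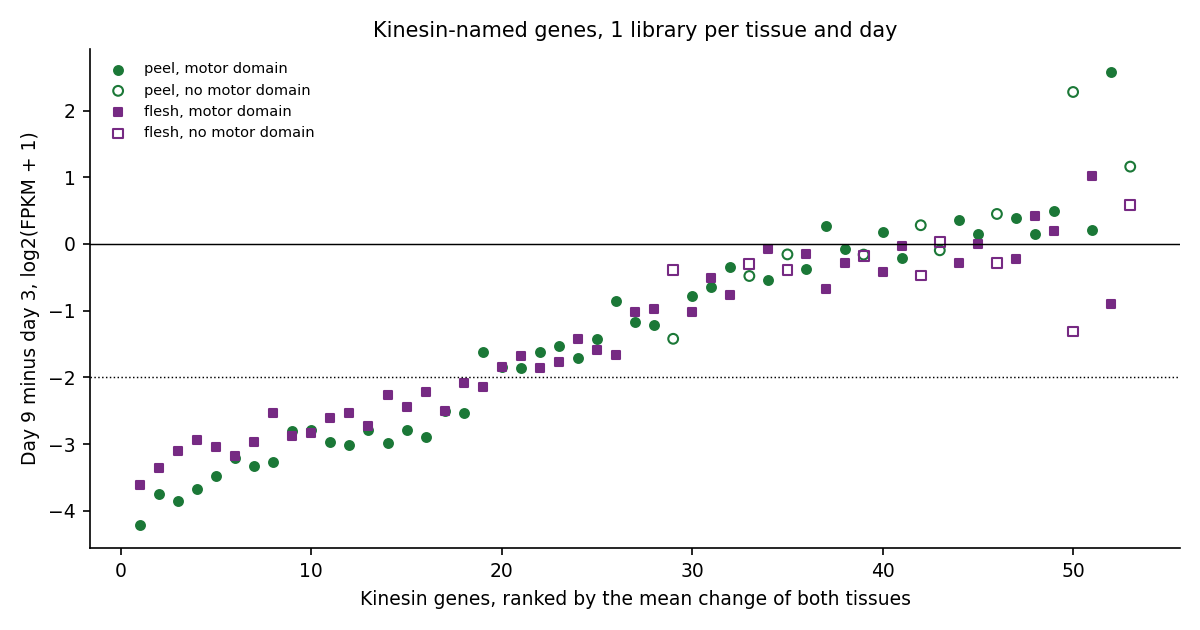
Difference between day 9 and day 3 on the log2(FPKM + 1) scale for the 53 tested kinesin-named genes, ranked by the mean of both tissues, with peel as circles and flesh as squares, 1 library per tissue and day. Filled symbols are genes with a motor domain and open symbols genes without one; the dotted line at -2 is a 4-fold lower value, and the genes below it all carry a motor domain.

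A pair of adjacent kinesin genes on chromosome 7 went the other way in peel. Csa7G006260 (323719 to 331093, with a motor domain) stood at 5.13, 4.54 and 35.6 FPKM in peel and at 11.3, 7.30 and 5.60 FPKM in flesh. Csa7G006270 (331948 to 332537, 854 bases further on and without one) stood at 12.2, 9.63 and 63.2 FPKM in peel and at 16.7, 7.82 and 6.12 FPKM in flesh. Both were highest in peel at day 9, whereas within flesh both were lowest at day 9. A similar course was seen in a CDK-like kinase, Csa6G127480 on chromosome 6, with 4.11, 1.89 and 26.3 FPKM in peel, against 2.99, 1.11 and 0.290 FPKM in flesh. Its neighbour Csa6G127470, 4227 bases away, did not share it, with 19.3, 10.2 and 8.69 FPKM in peel, against 5.53, 3.56 and 4.37 FPKM in flesh. These were the 3 genes at least 4-fold higher at day 9 than at day 3 in peel, and all 3 peel values of day 9 come from the library that stood apart.

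Peel and flesh differed in when the lower levels appeared: in peel most of the difference lay between days 6 and 9, and in flesh it was spread over both steps, a description of single libraries without a test. On the log2(FPKM + 1) scale, 0 of the 124 genes were at least 4-fold lower at day 6 than at day 3 in peel, where 0.944% of all genes tested were, and 5 were in flesh, where 1.53% were. The 5 were the D-type cyclins Csa3G199660, Csa4G641660, Csa2G356070 and Csa6G499110, and Csa2G337770, listed at 0 there. On the FPKM itself 3 were in peel (2.31% of all genes), Csa6G499110, Csa4G642510 and Csa4G025110, the highest of which stood at 3.29 FPKM at day 3, and 7 were in flesh (3.65% of all genes). At day 9 against day 6, 29 were at least 4-fold lower in peel (2.2% of all genes) and 4 in flesh (0.979% of all genes), and 3 were at least 4-fold higher in peel (3.79% of all genes) and 1 in flesh (3.35% of all genes). The median difference of day 6 from day 3 was -0.14 log2 units in peel and -0.34 in flesh, and that of day 9 from day 6 was -0.55 in peel and -0.49 in flesh. Straight lines fitted per tissue gave a smallest adjusted p of 0.0845 for the slope in peel, 0.165 for the slope in flesh and 0.393 for the difference between the slopes (limma), so 0 of the 124 passed in each, and 0.0% of all genes did. At an unadjusted p under 0.05, the slope was negative for 54 and positive for 5 in peel (11.1% and 9.73% of all genes), and negative for 46 and positive for 2 in flesh (6.14% and 6.71% of all genes). The slope in peel minus the slope in flesh was negative for 3 and positive for 3 (4.88% and 3.83% of all genes). A straight line takes no account of when between the days a level dropped.

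The 32 genes at least 4-fold lower at day 9 in both tissues show the timing most directly; they were chosen by their day 9 and day 3 values, so only the day 6 values and the tissue order were not fixed by that choice, and no test was made. They comprised 18 motor kinesins, 4 A- and B-type cyclins, 5 D-type cyclins, both B-type CDKs, the 2 genes described only as "Cyclin" and CDK inhibitor 3. At day 3 all 32 were within 1 log2 unit between the tissues, with a median of -0.07 for peel minus flesh. At day 6 the median of peel minus flesh was 0.75, and 29 of the 32 were lower in flesh. At day 9 it was -0.57, and 26 of the 32 were lower in peel. Both orders were met by 25 genes, among them all 18 kinesins. Of 264 genes outside the family that were at least 4-fold lower at day 9 in both tissues, 172 were lower in flesh at day 6, 186 were lower in peel at day 9, and 113 met both.

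As a share of the day 3 level, the 18 kinesins stood at a median of 71.4% at day 6 and 3.41% at day 9 in peel, against 36.9% at day 6 and 8.88% at day 9 in flesh. The highest of the 18 at day 9 stood at 8.79% in peel and 17.3% in flesh. Of the whole log2 difference between day 9 and day 3 over the 32 genes, a median of 16.0% was already present at day 6 in peel and 47.6% in flesh; over the 264 other genes the medians were 29.7% in peel and 49.6% in flesh. The 7 genes of the 32 that did not meet both orders were the 5 D-type cyclins, CDK inhibitor 3 and CDK B. At day 9, peel was above flesh for all 5 D-type cyclins, by 0.02 to 1.32 log2 units.

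**Figure D5:**
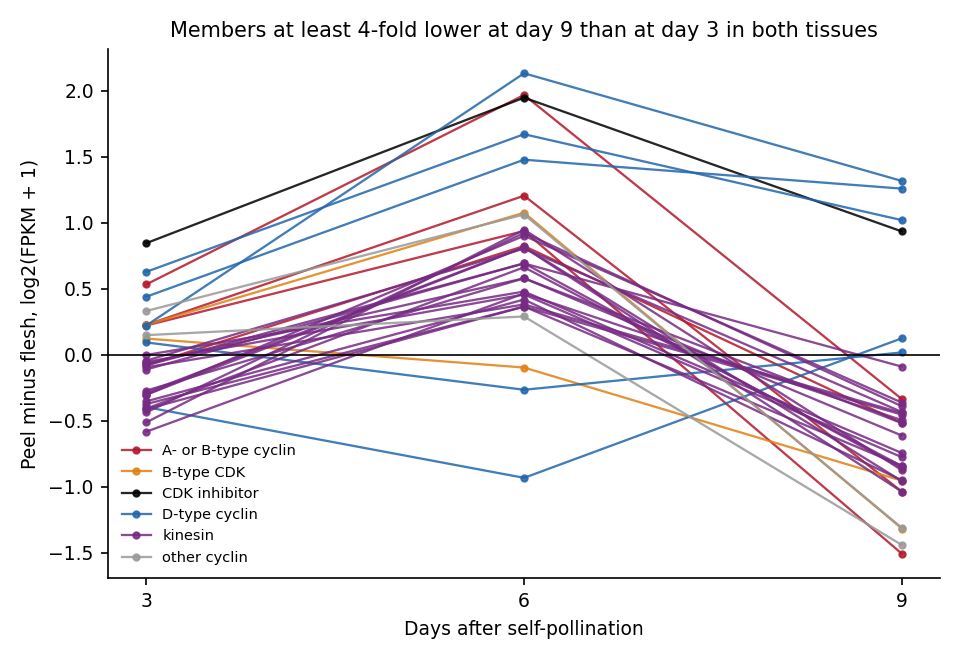
Peel minus flesh on the log2(FPKM + 1) scale at days 3, 6 and 9 for the 32 genes at least 4-fold lower at day 9 than at day 3 in both tissues, coloured by class, 1 library per tissue and day. The lines start near 0, most lie above 0 at day 6, and at day 9 the kinesin lines lie below 0 while the D-type cyclin and CDK inhibitor lines lie above it.

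Set against each other on single days, the tissues differed at least 4-fold on the log2(FPKM + 1) scale in few of the 124 genes. At day 3, 2 genes were at least 4-fold lower in peel than in flesh (0.822% of all genes tested) and 0 higher (2.66%). The 2 were the cyclins Csa6G499110 and Csa6G078670. At day 6, 1 was lower (2.06% of all genes), Csa6G078670 again, and 3 were higher (5.09%), of which 2 were the D3 cyclins Csa2G356070 and Csa3G199660 and 1 was Csa2G337770 with its few reads. At day 9, 2 were lower on the log2(FPKM + 1) scale (3.94% of all genes), Csa3G127030 (cyclin U4-1) and Csa4G425750; on the FPKM itself 14 were (7.03% of all genes), among them the cyclin B Csa4G658580 and both genes described only as "Cyclin". Of the 124, 4 were higher (7.03%), Csa6G127480, Csa7G006260, Csa7G006270 and Csa5G603320. Csa3G127030, named after its values were seen, stood at 27.0, 19.6 and 4.25 FPKM in peel, against 33.6, 43.8 and 28.0 FPKM in flesh.

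Between the tissues over all days, 0 of the 124 genes passed limma's test of peel against flesh (smallest adjusted p = 0.0782), where 0.261% of all genes did. At an unadjusted p under 0.05, 15 were lower and 8 higher in peel, where 12.3% of all genes were lower and 13.0% higher. The gene with the smallest p was Csa6G078670 (cyclin U4-1), named after its values were seen, which stood at 1.60, 3.53 and 2.17 FPKM in peel and at 12.8, 19.6 and 5.88 FPKM in flesh, a fitted difference of -1.91 ± 0.32 log2 units (adjusted p = 0.0782, limma). Its values in the tissues did not overlap, but the gene was picked by its smallest p, so this is no separate support. DESeq2 called 7 genes lower and 7 higher in peel (7.22% and 10.1% of all genes); for the slopes it called 45 negative and 2 positive in peel (5.39% and 5.26%), 32 negative and 0 positive in flesh (2.84% and 3.08%), and 0 negative and 2 positive for the difference (0.973% and 1.14%).

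Other genes of the dividing cell, taken as lists by product name, were set beside the cyclins and kinesins, and limma called 0 of their genes for day 9 against day 3. Their counts of genes at least 4-fold lower at day 9 stand beside 4.63% of all genes in peel and 3.06% in flesh. Mitosis and checkpoint genes were at least 4-fold lower at day 9 in 18 of 53 tested in peel and in 14 in flesh, with medians of -1.32 log2 units in peel and -0.75 in flesh. Its most abundant members were chromosome-structure proteins: Csa7G372270 stood at 36.0, 38.1 and 30.1 FPKM in peel and at 37.3, 35.9 and 33.9 FPKM in flesh, and the condensin subunit Csa1G024120 at 31.9, 37.0 and 8.93 FPKM in peel and at 34.6, 18.2 and 21.1 FPKM in flesh. Genes of cytokinesis and spindle microtubules had 9 of 21 at least 4-fold lower in peel and 8 in flesh, with medians of -1.14 in peel and -1.05 in flesh. The most abundant, the microtubule-associated protein 70-3 Csa4G431890, stood at 106, 101 and 63.0 FPKM in peel and at 99.8, 74.8 and 99.9 FPKM in flesh. The next, the crosslinking protein MAP65-1a, Csa3G073820, stood at 102, 94.5 and 45.8 FPKM in peel and at 110, 110 and 65.3 FPKM in flesh.

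DNA replication genes had 10 of 53 at least 4-fold lower in peel and 0 in flesh, with medians of -1.23 in peel and -0.72 in flesh. Csa3G597320, the small chain of ribonucleotide reductase, which makes the building blocks of DNA, stood at 88.9, 77.5 and 20.1 FPKM in peel and at 93.8, 137 and 57.1 FPKM in flesh. Histones had 7 of 31 at least 4-fold lower in peel and 2 in flesh, with medians of -1.51 in peel and -1.14 in flesh. Tubulins had 0 of 13 in either tissue, with medians of -0.89 in peel and -0.60 in flesh. The most abundant, the alpha chain Csa4G000580, stood at 1362, 1248 and 446 FPKM in peel and at 1452, 1300 and 505 FPKM in flesh. The next, the alpha chain Csa3G842710, stood at 253, 259 and 330 FPKM in peel and at 357, 540 and 542 FPKM in flesh. It was thus above its day 3 level at day 9 in both tissues. The E2F and retinoblastoma list, the regulators of entry into DNA synthesis, had 0 of 12 in either tissue, with medians of -0.39 in peel and -0.61 in flesh. Its most abundant gene, Csa1G045820 (Dp-1), stood at 36.9, 31.5 and 13.8 FPKM in peel and at 41.9, 40.5 and 26.6 FPKM in flesh. The next, the retinoblastoma-binding protein Csa3G019910, stood at 21.7, 25.1 and 26.6 FPKM in peel and at 19.3, 18.9 and 27.6 FPKM in flesh.

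Outside the division machinery, the cytosolic ribosomal proteins had medians of -0.81 in peel and -0.17 in flesh over 152 genes, with 0 at least 4-fold lower in peel and 1 in flesh. Cell wall loosening genes went in both directions: of 35 tested, 9 were at least 4-fold lower and 6 at least 4-fold higher in peel, and 3 were lower and 8 higher in flesh, where of all genes 5.2% in peel and 3.4% in flesh were at least 4-fold higher. The most abundant, xyloglucan endotransglucosylase/hydrolase Csa1G422480, an enzyme that remodels the wall, stood at 49.7, 70.0 and 1282 FPKM in peel and at 36.9, 11.002 and 422 FPKM in flesh. Its highest value in each tissue was at day 9. The next, Csa3G845490, of the same enzyme family, stood at 134, 180 and 47.5 FPKM in peel and at 231, 510 and 683 FPKM in flesh. Its value at day 9 was thus the lowest in peel and the highest in flesh. Over the 35 genes, the median difference of day 9 from day 3 was -0.50 log2 units in peel and -0.04 in flesh.

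The 12 genes that did not enter the tests were 7 kinesins, 3 of the other cyclins, 1 D-type cyclin and 1 CDK-like kinase. The CDK-like kinase Csa1G042890, which came closest to the limit of 1 FPKM with the kinesin Csa1G568560, stood at 2.36, 1.21 and 0.809 FPKM in peel and at 0.669, 0.108 and 0.0837 FPKM in flesh. Csa1G568560 stood at 1.38, 0.709 and 0.314 FPKM in peel and at 1.48, 1.15 and 0.546 FPKM in flesh. Csa3G816090, a kinesin with a calponin homology domain, stood at 0.363, 0.957 and 1.67 FPKM in peel and at 0.212, 0.164 and 0.222 FPKM in flesh. Of all 136 genes, 7 share their deposited locus with another gene, so their reads may belong to either; without them the median difference of day 9 from day 3 was -0.90 log2 units in peel and -0.88 in flesh, and the counts of 4-fold lower genes were 36 in peel and 35 in flesh.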

How the data were processed

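Total RNA of 6 pooled fruit samples was sequenced, 1 library per tissue and day, and the fruits of a pool cannot be told apart. The submitters' processing notes list TopHat and Cufflinks 2.1.1. Genome build, annotation and strand handling: not given in the sources used here. Coordinates are those of the deposited table. The deposited table holds FPKM, per the file headers, and columns headed counts whose values are whole reads times 1 factor per library; this deposited signal was divided by that factor, and 99.8% to 100.0% of the values were then within 0.05 of a whole number. Reads served for depth, Poisson intervals and count tests. Reads of overlapping or antisense genes and close copies may be assigned to either.

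Tests ran in limma 3.58.1 (R 4.3.3) on log2(FPKM + 1), which understates changes of low genes, for the 17265 genes averaging 1 FPKM or more, two-sided, with a variance trend and Benjamini-Hochberg adjustment. The first model had terms for tissue and for each day, the second a line per tissue; each had 2 residual degrees of freedom. Within 1 tissue or day, differences of 2 units on that scale (4-fold) were counted without a test. Other settings were a pseudocount of 0.1 or 5, all genes or those averaging 5 FPKM or more, rescaling by upper quartile or quantiles, no trend, each library left out, day as a number, and edgeR 4.0.16 and DESeq2 1.42.0 on the reads. On simulated data with 17265 genes, limma's test of day 9 against day 3 called 0% of 100 genes lowered by 2 log2 units and 27% of 100 lowered by 4. These data had normal noise around the fitted tissue and day 6 terms. On a separate simulation of read counts, DESeq2 called 59% and 91%, with 86 false calls, and edgeR 5% and 75%, with 6. Its counts were drawn around 1 mean per gene, with no tissue or day 6 effect. The percentages of limma and of the count tools therefore cannot be compared directly.

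The genes and lists were chosen with earlier results of these data known. Classes follow the product names; proteins that bind D-type cyclins were set apart from them by name, a split added later, as were the domain groups, the counts without shared loci, the 4-fold counts on the FPKM itself and the day 6 and day 9 tissue orders by setting. Named genes are, per class, the 3 of highest mean FPKM, the 3 with the largest negative and the 1 with the largest positive difference of day 9 from day 3, and per list the most abundant 1 or 2; others are named as examples of the 32 genes, of neighbours, of extremes, of genes whose 4-fold count differs between scales or of untested genes.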

Additional observations from a re-analysis of the deposited data

Results flagged for a closer look

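In 2 genes the difference of day 9 from day 3 was over 1 log2 unit and opposite in peel and flesh, a rule whose share over all genes is not given. For the CDK-like kinase Csa6G127480 it was 2.42 in peel and -1.63 in flesh, which is 4.05 log2 units apart, and for the kinesin-named Csa7G006270 it was 2.28 in peel and -1.31 in flesh, 3.59 apart. With 1 library per tissue and day the day 9 difference itself was not tested. The slopes of these genes differed between peel and flesh by 0.68 ± 0.26 log2 units per day for Csa6G127480 (adjusted p = 0.575, limma) and by 0.60 ± 0.20 for Csa7G006270 (adjusted p = 0.516, limma), so neither difference of slopes passed. At day 9 the values rested on 817 reads in peel and 12 in flesh for Csa6G127480, and on 399 reads in peel and 51 in flesh for Csa7G006270.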

How the results depend on the processing

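No pairing by replicate number was possible because each tissue and day had 1 library. The model with a term for each day already sets peel against flesh within days, and so pairs the tissues by day. Calls depended on the tool. For day 9 against day 3, day as a number gave 17 calls and DESeq2 54; DESeq2 also gave 14 for peel against flesh, 47 for the slope in peel, 32 for the slope in flesh and 2 for their difference, all against 0 by limma. edgeR gave 0 for all 5. The shares of all genes for the DESeq2 calls and for day as a number are given with those calls above. The counts of genes at least 4-fold lower at day 9 became 16 in peel and 13 in flesh with a pseudocount of 5, and 47 in peel and 45 in flesh with 0.1 or, a setting chosen after seeing the data, with none. With none, 7.92% of all genes were so in peel and 6.09% in flesh. For 0.1 and 5 the share of all genes is not given. The median difference in peel was -0.52 with a pseudocount of 5, -0.56 with no filter, -0.49 with a mean of at least 5 FPKM and -0.91 with upper-quartile rescaling, and in flesh -0.44, -0.55, -0.47 and -0.83 in the same order. Upper-quartile rescaling moved the median of all genes to -0.14 in peel and -0.11 in flesh, against -0.02 and -0.01.

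With 1 library left out at a time, calls ranged from 0 to 0 in all 5 tests. For the counts that follow, the shares of all genes are not given, so a shift over all genes cannot be told apart. In the slope fits, a tissue missing a library has its line exactly through its remaining libraries. The error then comes from the other tissue alone, so such a slope is not the same quantity as the slope over all libraries. The genes lower at an unadjusted p under 0.05 numbered 48 to 60 for day 9 against day 3. For the slope in peel they numbered 8 without peel at day 9, against 54; for the slope in flesh 6 without flesh at day 3 and 8 without flesh at day 9, against 46. For the difference of slopes they numbered 24 without peel at day 3, 6 without peel at day 6, 0 without peel at day 9, and 1 without flesh at day 6 or at day 9, against 3. For peel against flesh they numbered 3 without either library of day 6 and 9 without either library of day 3, against 15. Day 9 against day 3 for Csa6G382370 ranged from -0.36 (without flesh at day 9) to 0.64 (without peel at day 9), against 0.14, and for Csa1G051730 from -1.05 (without flesh at day 9) to 0.29 (without peel at day 9), against -0.38. For these 2 genes, leaving out a day 9 library makes the day 9 term rest on the other tissue alone. Within tissue, day 9 minus day 3 was -0.23 in peel and 0.51 in flesh for Csa6G382370. For Csa1G051730 it was -1.06 in peel and 0.30 in flesh. The cause of the changed counts was not tested. Of genes at least 4-fold lower in both tissues, 34 of 40 were lower in flesh at day 6 and 32 lower in peel at day 9 with a pseudocount of 0.1, and 10 and 8 of 11 with a pseudocount of 5.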
